A study of Homo sapiens with 10 samples.

Results

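The genes described here encode proteins of the red cell membrane, several of which carry blood group antigens: the glycophorins GYPB and GYPC, the Rh-associated glycoprotein RHAG, the Kell protein KEL, the anion exchanger SLC4A1, and the skeletal and linker proteins SPTB, ANK1 and EPB42. They were chosen by symbol, all 8 were found among the 23284 genes of the deposited table, and 6 of them, all but SLC4A1 and EPB42, passed the filter on low values that left 12788 genes for testing. The cells were K562, an established human line from a chronic myelogenous leukemia that expresses part of the erythroid program, and every value comes from this single line. Cultures were exposed for 48 h to the vehicle DMSO alone, to 2 or 5 µM CBP30 or to 2 or 5 µM I-CBP112, which makes 5 conditions of 2 biological replicates, or 10 samples. CBP30 and I-CBP112 are both small molecules that bind the bromodomains of the acetyltransferases CREBBP and EP300, and the comparisons ask how far each concentration of each compound moved these transcripts away from DMSO. No genotype or other agent differed between the groups.

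The membrane of the red cell is held by a meshwork of spectrin tetramers, built from alpha and beta chains, that lies under the lipid bilayer. Ankyrin ties beta spectrin to a complex of band 3 (SLC4A1), protein 4.2 (EPB42), glycophorins and the Rh proteins, and a separate junctional complex at the ends of the tetramers, with actin, adducin, tropomodulin and the EPB41 protein, holds glycophorin C. These genes are switched on in the course of erythroid differentiation, many of them under GATA1 and KLF1, and K562 cells carry only some of their products.

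The letters at the transcription starts are shown first, because GATA1 and KLF1 are among the transcripts that changed with the compounds. RefSeq promoters (GRCh38.p14) matched 6 of the 8 genes, GYPB, GYPC, RHAG, KEL, SPTB and EPB42, with 8 windows of 300 bases, since GYPB and SPTB each have more than 1 start and the windows of GYPB overlap. A GATA motif was taken as the letters GATA between A or T on the left and A or G on the right, on either strand, and a KLF motif as CCNCNCCC on either strand, where overlapping matches were all counted. A GATA motif was found in 7 of the 8 windows, at least once for each of the 6 genes, and in 25.0% of all 35116 RefSeq promoters. A KLF motif was found in 6 of the 8 windows and in 56.2% of all promoters. Among the promoters of tested genes that RefSeq matched, 16.1% held a GATA motif and 72.5% a KLF motif, a share close to that of the 8 windows for KLF. The stretches below run 5′ to 3′ on the strand of the gene, from 110 bases before the start to 30 after it, with the GATA motifs in capitals. They come from chr2:126656048-126656187 (plus strand) for GYPC, and from the minus strand for the others: chr6:49636810-49636949 for RHAG, chr7:142962334-142962473 for KEL, chr14:64879878-64880017 for the upstream start of SPTB, chr4:144019316-144019455 for the downstream start of GYPB and chr15:43220989-43221128 for EPB42. GYPE, at chr4:143905530-143905669 on the minus strand, is not one of the chosen genes and is shown because its start region is nearly equal to that of GYPB.
GYPC: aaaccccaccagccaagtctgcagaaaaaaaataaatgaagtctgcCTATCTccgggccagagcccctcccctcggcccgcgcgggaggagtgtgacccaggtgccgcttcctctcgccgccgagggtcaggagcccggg
RHAG: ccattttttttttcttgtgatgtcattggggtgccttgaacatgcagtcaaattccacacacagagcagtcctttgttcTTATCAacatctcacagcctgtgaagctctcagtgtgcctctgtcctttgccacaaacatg
KEL: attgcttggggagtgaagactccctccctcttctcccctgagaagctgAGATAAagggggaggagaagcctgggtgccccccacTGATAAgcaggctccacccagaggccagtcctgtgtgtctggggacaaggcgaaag
SPTB: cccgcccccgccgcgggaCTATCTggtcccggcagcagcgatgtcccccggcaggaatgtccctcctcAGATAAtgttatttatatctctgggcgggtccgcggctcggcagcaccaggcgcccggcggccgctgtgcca
GYPB: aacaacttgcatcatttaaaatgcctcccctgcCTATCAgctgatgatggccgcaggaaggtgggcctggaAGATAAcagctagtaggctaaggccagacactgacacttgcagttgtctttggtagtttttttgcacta
GYPE: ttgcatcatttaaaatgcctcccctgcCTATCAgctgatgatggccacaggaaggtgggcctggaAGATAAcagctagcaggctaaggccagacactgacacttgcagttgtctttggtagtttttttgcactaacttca
EPB42: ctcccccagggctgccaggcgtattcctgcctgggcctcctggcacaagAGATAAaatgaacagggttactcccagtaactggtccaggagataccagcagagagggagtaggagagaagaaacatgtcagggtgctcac

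In the stretch of RHAG the single motif began 31 bases before the start, and in that of KEL the motifs began 62 and 26 bases before it. The aligned stretches of GYPB and GYPE were equal at 132 of 134 bases, and both hold the same pair of GATA motifs. EPB42 carries a motif in the printed stretch and another 208 bases before its start, although its transcript was at or near 0 in every sample. The motif is therefore shared by genes whose levels lay far apart, and a match describes letters, not a bound site.

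**Figure D1:**
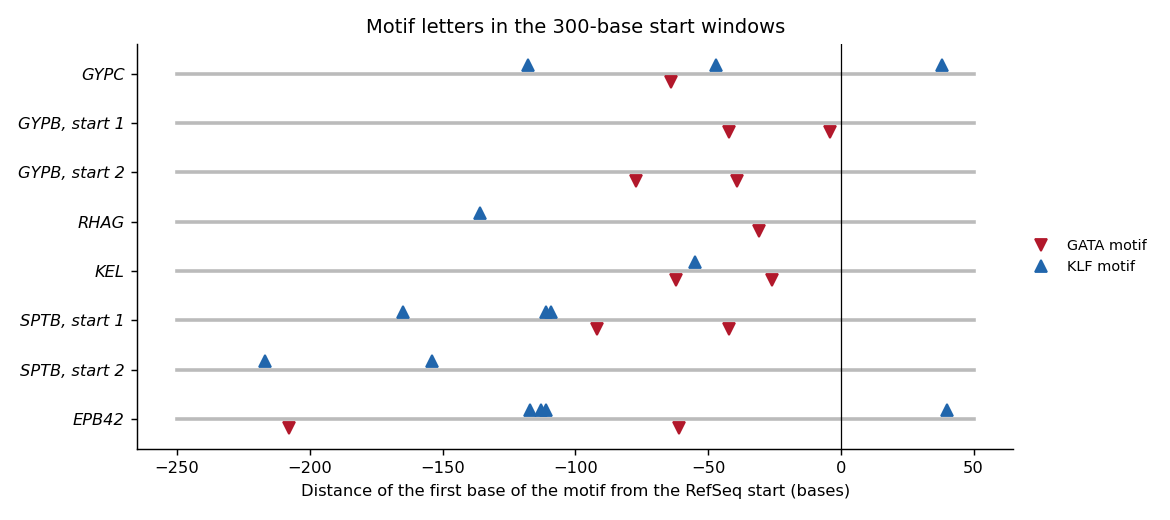
Positions of GATA (red) and KLF (blue) motif letters in the 300-base RefSeq windows around each start, as the distance in bases of the first base of the motif from the start at 0. GATA motifs lie within 100 bases upstream of at least 1 start of each of the 6 genes, and the downstream start of SPTB (start 2) has none.

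The deposited values are FPKM, fragments scaled by transcript length and by the number of mapped reads, so they may be compared between genes per unit of length. Summed over all genes they ranged from 547504 to 689095 per sample, and the depth of each library is unknown. From the smallest values of 675 rarely detected genes, the relative depth of the libraries was estimated at 0.754 to 1.15. The 8 markers of K562 and erythroid cells were all detected in every sample, with a summed level of 1836 to 1878 FPKM with DMSO, 678 to 882 at 2 µM and 616 to 642 at 5 µM CBP30, and 1098 to 1216 at 2 µM and 1057 to 1146 at 5 µM I-CBP112. Markers of monocytes and granulocytes summed to at most 0.267 FPKM, with ELANE at 0 in all samples. Of the lymphocyte markers, summing to 17.2 to 31.0 FPKM, CD3D made up most and MS4A1 was at 0 throughout. Of the 4 epithelial markers, summing to 345 to 534 FPKM, KRT8, KRT19 and EPCAM were detected and CDH1 was at most 0.0517. The lymphocyte sum was higher in every sample of CBP30 and of 5 µM I-CBP112 (20.8 to 23.9 FPKM) than with DMSO (17.2 to 19.9). At 2 µM I-CBP112 it was 17.9 to 18.5. The epithelial sum was 345 to 359 FPKM with DMSO, 384 to 534 at 2 µM and 463 to 469 at 5 µM CBP30, and 360 to 386 at 2 µM and 386 to 409 at 5 µM I-CBP112. Its members went different ways with 5 µM CBP30, where KRT8 rose from 195 to 368 FPKM (log2 fold change 0.91) while EPCAM fell from 59.2 to 32.4 (-0.85) and KRT19 from 97.5 to 65.8 (-0.56). The part of these markers in the results was not tested. In these bulk samples a fall in a transcript can come from fewer cells that carry it or from less RNA per cell, which cannot be told apart.

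Replicate 1 of 2 µM CBP30 stood apart from the other libraries by transcript length. Relative to DMSO, the median log2 difference was 0.26 over tested genes with transcripts of up to 1976 bases and -0.28 over those of at least 5982 bases, against 0.00 and -0.02 in replicate 2. Both samples of 5 µM CBP30 showed a smaller trend of the opposite sign, with medians of -0.12 and -0.11 for the short transcripts and 0.11 for the long ones. The transcripts of SPTB (10177 bases) and ANK1 (8457) are among the longest and those of GYPB (632) and GYPC (1805) are short. Comparisons between conditions that involve 2 µM CBP30 are therefore given below for the 6 tested genes with that sample, without it and with the trend removed.

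GYPC encodes glycophorin C, the carrier of Gerbich antigens, which binds the EPB41 protein in the junctional complex (chr2:127413709-127454243, plus strand, GRCh37, as for the other gene positions). It was the most highly expressed of the 8 genes with DMSO, at 242 and 233 FPKM, above 98.6% of the genes in the table. It read 200 and 152 FPKM at 2 µM and 91.9 and 85.3 at 5 µM CBP30, and 188 and 193 at 2 µM and 180 and 175 at 5 µM I-CBP112. Every treated sample lay below both DMSO samples, and the samples of 5 µM CBP30 lay far below all others. GYPC fell to 37.3% of the DMSO mean with 5 µM CBP30, where the log2 fold change was -1.41 (SE 0.117, limma adjusted p = 1.16e-04), the largest fall of the 6 tested genes in that comparison.

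RHAG encodes the Rh-associated glycoprotein, a channel-like membrane protein needed to bring the Rh antigens to the surface (chr6:49572888-49604552, minus strand). Its 2 DMSO samples both read 203 FPKM. It read 133 and 121 FPKM at 2 µM and 113 and 117 at 5 µM CBP30, and 149 and 153 at 2 µM and 158 and 155 at 5 µM I-CBP112. The groups of the 2 compounds did not overlap with each other or with DMSO, and the order was DMSO, I-CBP112, CBP30. RHAG was the only one of the 8 genes called lower in all 4 comparisons with DMSO.

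KEL encodes the Kell glycoprotein, a membrane-bound endopeptidase that carries the Kell antigens (chr7:142638201-142659450, minus strand). It read 34.3 and 33.9 FPKM with DMSO, 20.4 and 21.8 at 2 µM and 25.0 and 23.6 at 5 µM CBP30, and 31.2 and 31.2 at 2 µM and 29.3 and 29.7 at 5 µM I-CBP112. All 4 CBP30 samples lay below all 4 I-CBP112 samples, and the lower concentration of CBP30 gave the lower values.

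SPTB encodes the erythroid beta spectrin chain (chr14:65213001-65346625, minus strand), and ANK1 encodes the erythroid ankyrin that anchors it to the band 3 complex (chr8:41510739-41754259, minus strand). SPTB read 18.1 and 18.3 FPKM with DMSO, 7.50 and 8.47 at 2 µM and 8.17 and 7.95 at 5 µM CBP30, and 15.3 and 14.5 at 2 µM and 13.7 and 13.1 at 5 µM I-CBP112. ANK1 read 16.5 and 15.8 FPKM with DMSO, 6.61 and 7.67 at 2 µM and 9.74 and 9.51 at 5 µM CBP30, and 12.2 and 12.3 at 2 µM and 10.2 and 10.4 at 5 µM I-CBP112. For SPTB the concentrations of CBP30 overlapped and I-CBP112 lay between them and DMSO. For ANK1 the lowest values were those of 2 µM CBP30, and 5 µM CBP30 lay just below 5 µM I-CBP112.

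GYPB encodes glycophorin B, the carrier of the S and s antigens (chr4:144917257-144940533, minus strand). Unlike the genes above, it did not fall in every condition. It read 114 and 126 FPKM with DMSO, 171 and 140 at 2 µM and 70.4 and 80.8 at 5 µM CBP30, and 114 and 128 at 2 µM and 140 and 141 at 5 µM I-CBP112. The samples of 5 µM CBP30 lay below all others, and those of 2 µM CBP30 and 5 µM I-CBP112 lay above both DMSO samples. Of the 50-base windows of the GYPB transcript, 26.8% (138 of 515) were also found in another gene, and the reads were 50 bases long. How the counting shared such reads is not given in the sources used here, so the level of GYPB is less certain than those of GYPC, RHAG, KEL, SPTB and ANK1, which had no shared window.

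SLC4A1 and EPB42 were barely expressed. SLC4A1, the band 3 anion exchanger and carrier of the Diego antigens (chr17:42325758-42345509, minus strand), read 0.505 and 0.353 FPKM with DMSO and 0.209 to 0.307 in the treated samples, all of which lay below both DMSO samples. Its mean of 0.292 FPKM was under the filter of 0.5. In a fit without the filter its log2 fold change was -0.22 under 5 µM CBP30 (limma adjusted p = 0.0149), as it was under 5 µM I-CBP112, where the adjusted p was 0.0594. EPB42, protein 4.2 (chr15:43489425-43513216, minus strand), was listed at 0 in 7 of 10 samples and reached 0.0380 FPKM in replicate 1 of DMSO, too low for any comparison. With DMSO alone the transcripts of both were thus under 1 FPKM, beside means of 16.2 FPKM for ANK1 and 18.2 FPKM for SPTB.

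**Figure D2:**
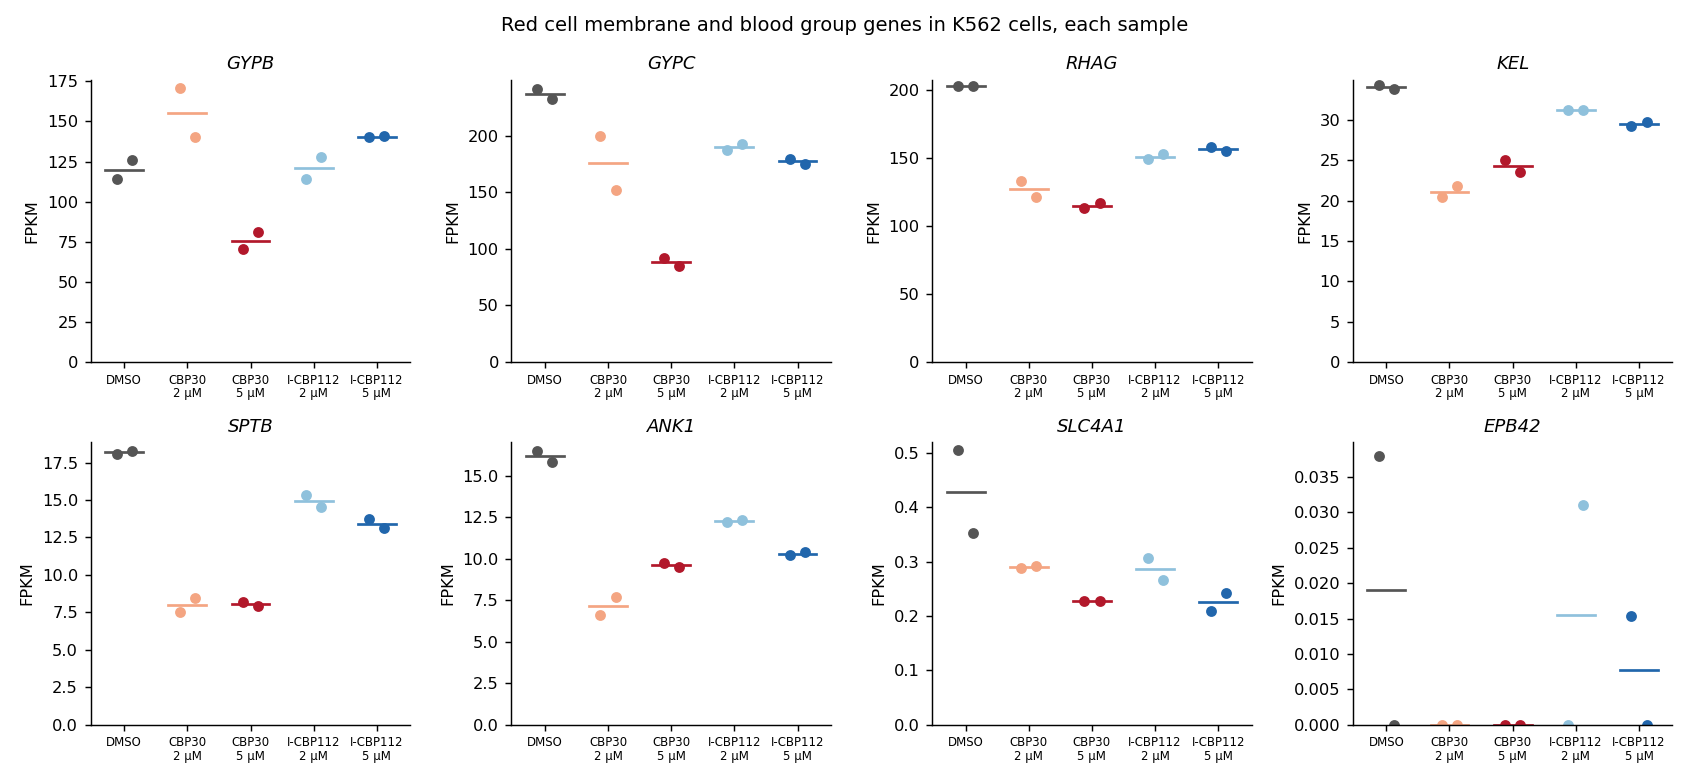
FPKM of the 8 genes in each sample (points) with the mean of each condition (line), on linear axes that start at 0 and differ between genes. GYPC, RHAG, KEL, SPTB and ANK1 are lower in all treated samples than in both DMSO samples, GYPB is not, and SLC4A1 and EPB42 stay under 1 FPKM.

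With 5 µM CBP30, all 6 tested genes were called lower. Over all genes tested, 25.4% were called lower and 21.2% higher in this comparison. The median log2 fold change was -0.76 for the 6 genes and -0.010 for all tested genes. Beside GYPC, SPTB fell by 1.08 (95% interval -1.23 to -0.93, adjusted p = 3.09e-05) and RHAG by 0.82 (-0.95 to -0.69, adjusted p = 5.22e-05) on the log2 scale. The smaller changes were those of ANK1 at -0.69 (adjusted p = 2.52e-04), GYPB at -0.66 (adjusted p = 0.00313) and KEL at -0.47 (adjusted p = 3.44e-04). As shares of the DMSO mean, these correspond to 44.3% for SPTB, 56.6% for RHAG, 59.5% for ANK1, 63.0% for GYPB and 71.2% for KEL. With the length trend removed, the values ran from -1.28 for GYPC to -0.38 for KEL.

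With 2 µM CBP30, 5 of the 6 genes fell, against 16.3% of all genes tested called lower and 15.9% higher. SPTB and ANK1 changed most, with log2 fold changes of -1.10 (SE 0.0648, adjusted p = 8.51e-05) and -1.08 (SE 0.0685, adjusted p = 1.17e-04), which left 43.9% and 44.1% of the DMSO mean. RHAG and KEL each fell by 0.67, with adjusted p-values of 3.20e-04 and 2.28e-04, and GYPC by 0.44 (adjusted p = 0.0272). GYPB was at 0.36 (95% interval 0.09 to 0.64) with an adjusted p of 0.0502, so its higher level did not pass the threshold. Without replicate 1 of 2 µM CBP30 the values were -1.02 for SPTB, -0.99 for ANK1, -0.74 for RHAG, -0.63 for KEL, -0.64 for GYPC and 0.22 for GYPB. With the length trend removed they were -0.90, -0.92, -0.78, -0.75, -0.56 and 0.17 in the same order. The 5 falls passed the threshold both ways, and GYPB did not pass either way. GYPB was called higher without replicate 2 of 2 µM CBP30 (0.51, adjusted p = 0.00844), after quantile normalization (0.29, adjusted p = 0.0307) and with a pseudocount of 0.1 (0.36, adjusted p = 0.0492). GYPC missed the threshold after median centring (-0.41, adjusted p = 0.0515) and without either DMSO sample (adjusted p = 0.123 and 0.0973) or any 1 sample of I-CBP112 (adjusted p from 0.0501 to 0.0516). In a fit of the 2 µM CBP30 and DMSO samples alone 3 genes were called, and GYPC and RHAG (adjusted p = 0.0564) were not.

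**Figure D3:**
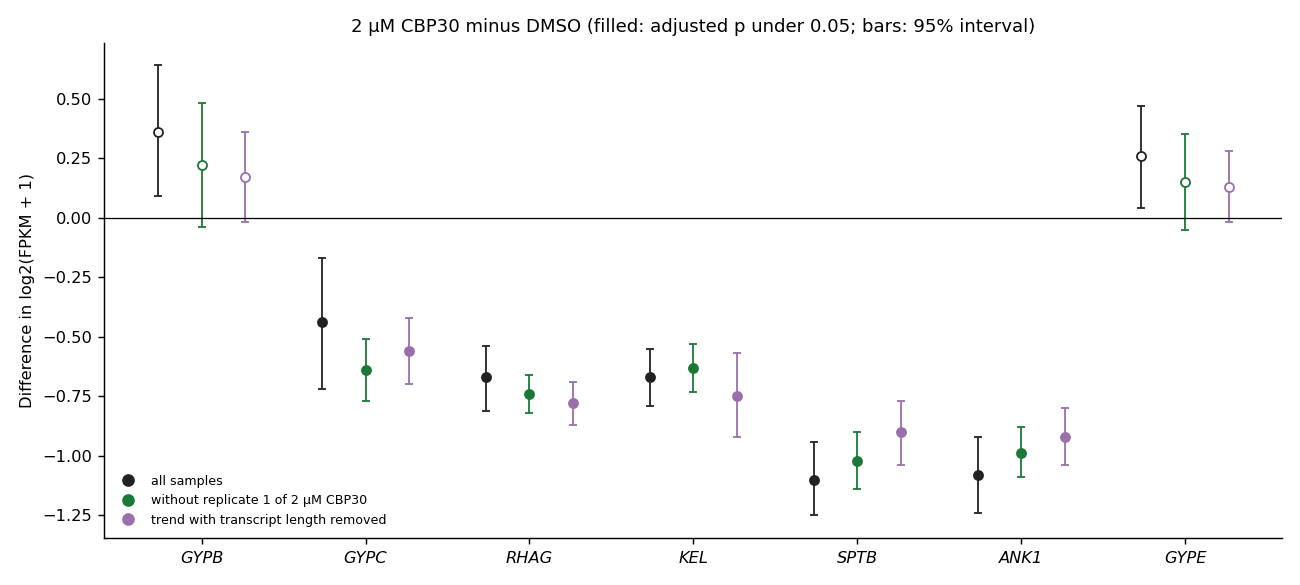
Difference in log2(FPKM + 1) between 2 µM CBP30 and DMSO with all samples (black), without replicate 1 of 2 µM CBP30 (green) and with the trend with transcript length removed (purple), with 95% intervals; filled points passed an adjusted p of 0.05. GYPC, RHAG, KEL, SPTB and ANK1 are below 0 in all 3 versions, and GYPB and GYPE are above 0 and unfilled in all 3.

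The changes with I-CBP112 were smaller. At 5 µM, 3 genes fell, ANK1 by 0.60 (SE 0.0685, adjusted p = 0.00414), SPTB by 0.42 (SE 0.0648, adjusted p = 0.0126) and RHAG by 0.38 (SE 0.0560, adjusted p = 0.0109), where 3.28% of all genes tested were called lower and 3.84% higher. GYPC at -0.42 (95% interval -0.69 to -0.14, adjusted p = 0.0834) and KEL at -0.20 (-0.32 to -0.09, adjusted p = 0.0583) did not pass, and neither did GYPB at 0.22 (-0.05 to 0.50). GYPC was called with the length trend removed (limma adjusted p = 0.00547) and after quantile normalization (limma adjusted p = 0.00988). KEL was called after median centring (limma adjusted p = 0.0475). Both were called in a fit of the 5 µM I-CBP112 and DMSO samples alone (limma adjusted p = 0.0182 for GYPC and 0.0318 for KEL). At 2 µM only RHAG was called, with a fall of 0.42 (adjusted p = 0.0192), where 0.735% of all genes were called lower and 0.868% higher. ANK1 was at -0.38 (adjusted p = 0.0502), GYPC at -0.32, SPTB at -0.27 and KEL at -0.12, and GYPB was at 0.01 (95% interval -0.26 to 0.29). These calls depended on single samples. At 5 µM fewer of the 6 genes were called without either DMSO sample or either sample of that treatment, and more without either sample of 2 µM CBP30. At 2 µM the call of RHAG was lost without any 1 sample of DMSO, of 5 µM CBP30 or of either I-CBP112 group. More genes were called there without either sample of 2 µM CBP30. The number called among all genes shifted the same way in each of these fits. In the fit of all samples 5 of the 6 had an unadjusted p under 0.05 at 2 µM, a count not made over all genes. The comparisons with DMSO all share the same 2 DMSO samples.

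**Figure D4:**
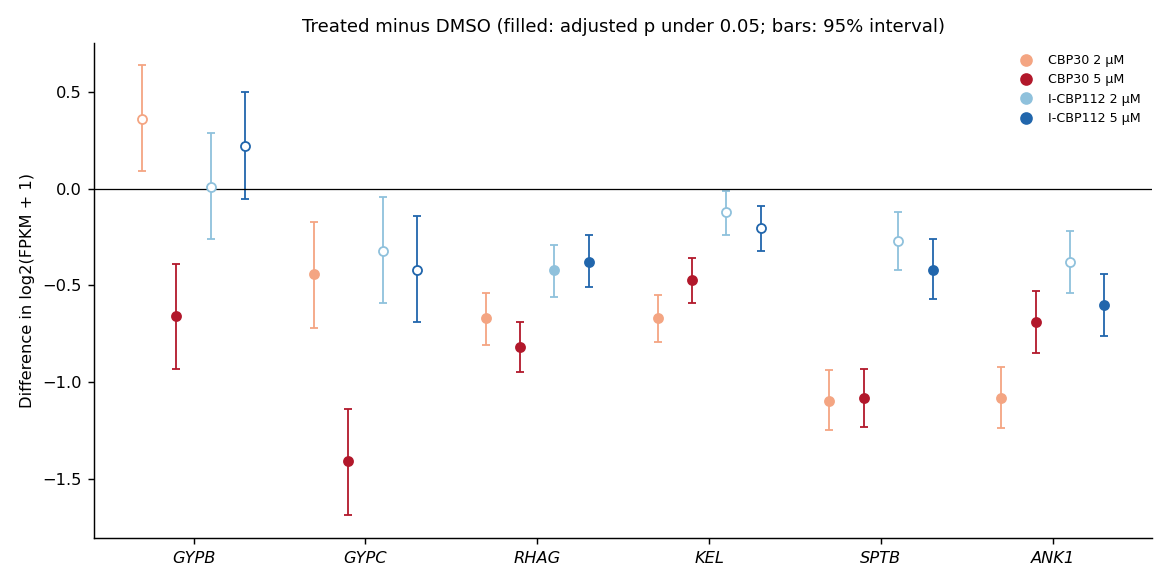
Difference in log2(FPKM + 1) from DMSO for the 6 tested genes, with 95% intervals; colours mark the treatment and filled points passed an adjusted p of 0.05. All 6 genes are filled and below 0 with 5 µM CBP30, and with I-CBP112 only RHAG is filled at both concentrations.

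The 2 compounds were compared directly at equal concentrations. At 5 µM, 5 of the 6 genes were lower with CBP30 than with I-CBP112, where 17.9% of all genes tested were called lower and 13.6% higher. GYPC stood at 88.6 against 178 FPKM (95% interval of the log2 difference -1.27 to -0.72, adjusted p = 0.00122). The other log2 differences were -0.89 for GYPB (-1.16 to -0.61, adjusted p = 0.00186), -0.66 for SPTB (-0.82 to -0.51, adjusted p = 5.83e-04), -0.44 for RHAG (adjusted p = 0.00165) and -0.27 for KEL (adjusted p = 0.00747). ANK1 differed by -0.09 (-0.25 to 0.07, adjusted p = 0.346), an interval that holds differences of up to 0.25 on the log2 scale. With the length trend removed KEL no longer passed (-0.17, adjusted p = 0.106) and ANK1 did (-0.22, adjusted p = 0.0151), and KEL also missed the threshold without replicate 2 of 5 µM CBP30 (-0.23, adjusted p = 0.0605) or of 5 µM I-CBP112 (-0.26, adjusted p = 0.0531).

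At 2 µM, 4 of the 6 genes were lower with CBP30, against 8.45% of all genes tested called lower and 7.13% higher. SPTB differed by -0.83 (95% interval -0.98 to -0.68, adjusted p = 9.39e-04), ANK1 by -0.70 (-0.87 to -0.54, adjusted p = 0.00204), KEL by -0.55 (adjusted p = 0.00177) and RHAG by -0.25 (adjusted p = 0.0298). The glycophorins did not pass with all samples, with GYPC at -0.13 (-0.40 to 0.15) and GYPB at 0.35 (0.07 to 0.62, adjusted p = 0.0814). The fit of these groups alone called 0 of the genes. Without replicate 1 of 2 µM CBP30 the values were -0.75 for SPTB, -0.61 for ANK1 and -0.50 for KEL. They were -0.32 for RHAG, -0.32 for GYPC and 0.20 for GYPB. With the length trend removed they were -0.62, -0.53, -0.63, -0.37, -0.26 and 0.15 in the same order. GYPC was called lower without that sample (adjusted p = 0.0125), with the trend removed (adjusted p = 0.0233) and after quantile normalization (-0.23, adjusted p = 0.0446). RHAG lost its call after median centring (-0.22, adjusted p = 0.0707) and without any 1 sample of DMSO, of 5 µM CBP30 or of either I-CBP112 group (adjusted p from 0.0606 to 0.128). Without replicate 2 of 2 µM CBP30, GYPC was at 0.07 and GYPB was called higher (0.49, adjusted p = 0.0105).

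The concentration of CBP30 separated the genes into different patterns. Between 2 and 5 µM CBP30, GYPB fell by 1.02 (95% interval -1.30 to -0.75, adjusted p = 0.00203) and GYPC by 0.97 (-1.25 to -0.70, adjusted p = 0.00252), whereas ANK1 was higher at 5 µM by 0.39 (0.23 to 0.55, adjusted p = 0.00797) and KEL by 0.20 (0.08 to 0.32, adjusted p = 0.0235). Over all genes tested, 21.3% were called lower and 17.6% higher. SPTB, with a difference of 0.01 (-0.14 to 0.17), and RHAG, with -0.14 (-0.27 to -0.01, adjusted p = 0.0793), were not called. These values rest on the sample with the length trend: without it they were -0.88 for GYPB, -0.77 for GYPC, 0.29 for ANK1 and 0.15 for KEL, all called, and SPTB was at -0.06. RHAG was at -0.08 without that sample and at 0.08 with the trend removed. With the trend removed GYPB (-0.71), GYPC (-0.72) and KEL (0.37) were called, ANK1 was not (0.12, adjusted p = 0.116), and SPTB fell by 0.30 (adjusted p = 0.00914). Only GYPB and GYPC were called without either sample of 5 µM CBP30, RHAG was called as well without replicate 2 of 2 µM CBP30 (-0.21, adjusted p = 0.00258), and no gene was called in a fit of the CBP30 groups alone.

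Between 2 and 5 µM I-CBP112 none of the 6 genes was called, and 1 (ANK1, at -0.23, 95% interval -0.39 to -0.06) had an unadjusted p under 0.05. Such a count was not made over all genes. Over all genes, 0.00782% were called lower and 0.0547% higher, 8 genes in all. The intervals of the other members ran from -0.37 to 0.48. A test of the difference between the compounds in this step, in which 3.32% of all genes were called lower and 1.63% higher, called GYPB, GYPC and ANK1.

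**Figure D5:**
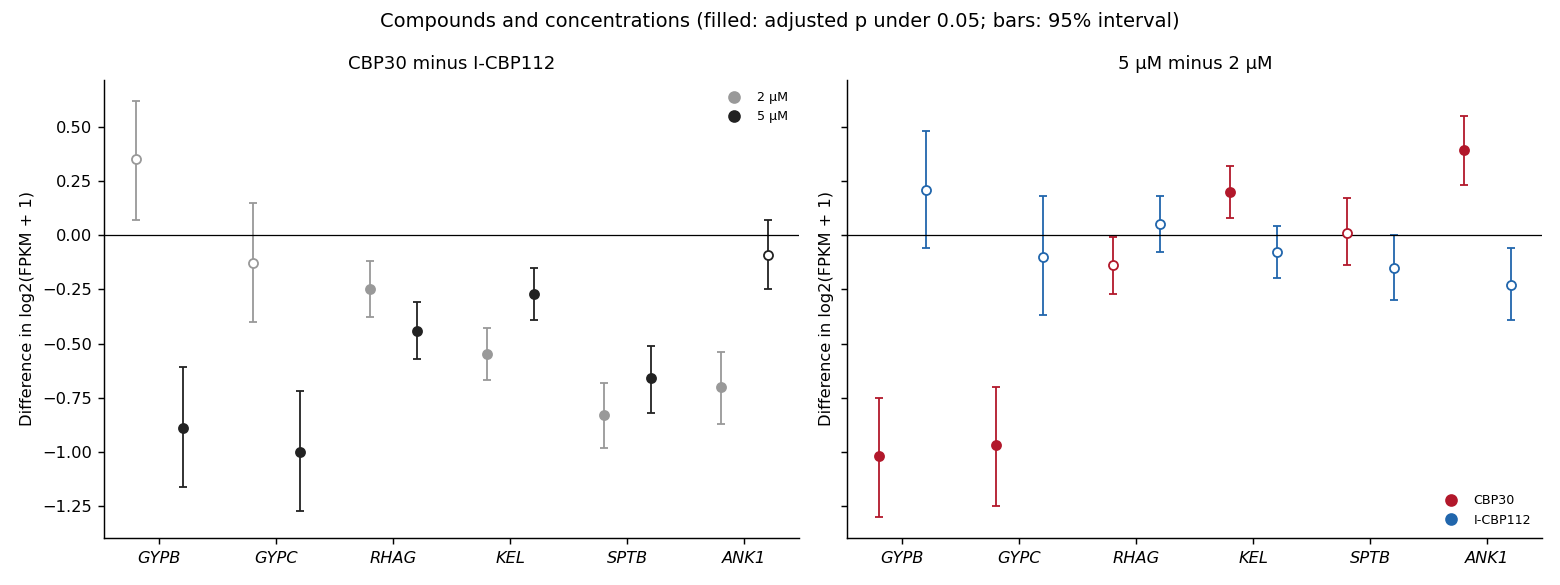
Difference in log2(FPKM + 1) between CBP30 and I-CBP112 at 2 µM (grey) and 5 µM (black) on the left, and between 5 and 2 µM for CBP30 (red) and I-CBP112 (blue) on the right, with 95% intervals; filled points passed an adjusted p of 0.05. GYPB and GYPC are lower with 5 µM CBP30 in both panels, ANK1 is higher at 5 than at 2 µM CBP30, and no blue point is filled.

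GYPE, a close relative of GYPB (chr4:144792017-144826716, minus strand), read 84.2 and 92.2 FPKM with DMSO, 114 and 97.8 at 2 µM and 84.0 and 92.0 at 5 µM CBP30, and 87.9 and 92.1 at 2 µM and 108 and 101 at 5 µM I-CBP112. With all samples it was called in no comparison with DMSO. It was called higher with 5 µM I-CBP112 with the length trend removed (0.24, adjusted p = 0.0499) and without replicate 1 or 2 of 2 µM CBP30 (adjusted p = 0.0473 and 0.0475), and higher with 2 µM CBP30 without replicate 2 of that group (0.37, adjusted p = 0.00965). Of the 50-base windows of GYPE 1.0% were found in another gene or gene model. With 5 µM CBP30 its log2 fold change was -0.00 (95% interval -0.22 to 0.21), while GYPB fell by 0.66. Between 2 and 5 µM CBP30 GYPB was called lower and GYPE was not (-0.26, adjusted p = 0.0561). The value for GYPE was -0.15 without replicate 1 of 2 µM CBP30, 0.01 with the trend removed and -0.37 without replicate 2 of 2 µM CBP30, when it was called (adjusted p = 0.00814), and whether the 2 genes differed was not tested.

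Other members of the band 3 and ankyrin complex were counted in the same way. Over all genes tested, 25.4% were called lower at 5 µM CBP30, 16.3% at 2 µM, and 3.28% with I-CBP112 at 5 µM. Of 6 listed genes, all tested, 4 were called lower and 0 higher with 5 µM CBP30. With 2 µM CBP30, 3 were called lower, and with the length trend removed 4, against 19.7% of all genes in that fit. None was called with 5 µM I-CBP112, where 2 had an unadjusted p under 0.05, a count not made over all genes. These went opposite ways, ICAM4 with a log2 fold change of -0.64 and GYPE with 0.24. ICAM4, the Landsteiner-Wiener antigen, went from 33.2 to 10.6 FPKM with 5 µM CBP30 (log2 fold change -1.56, adjusted p = 2.45e-04), and RHD, the D antigen, from 3.11 to 1.42 FPKM (-0.77, adjusted p = 6.31e-04). RHD is itself a close copy of RHCE. The list's median log2 fold change was -0.58, against -0.010 for all tested genes.

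Of 12 listed skeletal and junctional genes, all tested, 6 were called lower and 5 higher with 5 µM CBP30, against 25.4% and 21.2% of all genes tested. With 2 µM CBP30 the counts were 6 and 2, against 16.3% and 15.9%, and with 5 µM I-CBP112 they were 5 and 0, against 3.28% and 3.84%. With the length trend removed the counts for 2 µM CBP30 were 6 and 2, against 19.7% and 19.5%. The largest falls with 5 µM CBP30 were those of ADD2, the beta chain of adducin, from 7.98 to 0.893 FPKM (log2 fold change -2.25, adjusted p = 4.52e-06), and of TMOD1, which caps the short actin filaments, from 23.3 to 7.63 FPKM (-1.49, adjusted p = 1.98e-06). ADD1, the alpha chain of adducin, rose from 53.3 to 78.4 FPKM (0.55, adjusted p = 1.50e-04) and EPB41, which joins spectrin to actin and glycophorin C, from 84.6 to 122 FPKM (0.52, adjusted p = 0.0438).

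Of 8 tested relatives of the skeletal genes that serve other tissues, 3 were called lower and 4 higher with 5 µM CBP30, against 25.4% and 21.2% of all genes tested, and 1 each way with 5 µM I-CBP112, against 3.28% and 3.84%. SPTAN1, the non-erythroid alpha spectrin, rose from 10.8 to 48.7 FPKM with 5 µM CBP30 (log2 fold change 2.07, adjusted p = 1.61e-05), to 27.7 with 2 µM CBP30 (1.27, adjusted p = 3.17e-04, and 1.44 without replicate 1 of that group) and to 20.7 with 5 µM I-CBP112 (0.87, adjusted p = 0.00485). SPTBN1, a beta spectrin of most tissues, rose from 33.4 to 58.5 FPKM with 5 µM CBP30 (0.79, adjusted p = 0.00488). EPB41L2, a relative of EPB41, fell from 138 to 75.3 FPKM (-0.87, adjusted p = 3.65e-04). Per unit of length, SPTAN1 stood below SPTB with DMSO, at 10.8 against 18.2 FPKM, and above it with 5 µM CBP30, at 48.7 against 8.06.

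Of 26 other listed carriers and enzymes of blood groups, 25 were in the table and 19 were tested, of which 6 were called lower and 5 higher with 5 µM CBP30, shares near the 25.4% and 21.2% of all genes tested. The counts were 5 and 4 with 2 µM CBP30, against 16.3% and 15.9%, and 1 and 3 with 5 µM I-CBP112, against 3.28% and 3.84%. With the length trend removed the counts for 2 µM CBP30 were 7 and 4, against 19.7% and 19.5%. With 5 µM CBP30, CD55, the complement regulator that carries Cromer antigens, fell from 31.7 to 14.6 FPKM (log2 fold change -1.07, adjusted p = 2.89e-05) and EMP3 from 137 to 68.6 (-0.98, adjusted p = 0.00131). SEMA7A, which carries the John Milton Hagen antigen, rose from 4.84 to 15.1 FPKM (1.46, adjusted p = 2.19e-05), and GCNT2, the enzyme that makes the I antigen, from 0.377 to 1.29 (0.73, adjusted p = 5.57e-04). The median of this list was 0.05.

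Of 8 listed regulators of erythroid genes, 7 were called lower and 1 higher with 5 µM CBP30, against 25.4% and 21.2% of all genes tested. With 2 µM CBP30, 7 were called lower, against 16.3%, and 5 with 5 µM I-CBP112, against 3.28%. With the length trend removed 7 were called lower with 2 µM CBP30, against 19.7%. GATA1 fell from 170 to 53.1 FPKM with 5 µM CBP30 (log2 fold change -1.66, adjusted p = 2.99e-05) and KLF1 from 65.3 to 8.44 FPKM (-2.81, adjusted p = 1.44e-05). LMO2, a bridging protein of the GATA1 complex, fell from 88.6 to 7.96 FPKM (-3.32, adjusted p = 4.05e-07), and TAL1, its partner, rose from 17.4 to 23.8 (0.43, adjusted p = 0.00127). Both GATA1 (-0.82, adjusted p = 0.00250) and KLF1 (-1.28, adjusted p = 0.00177) fell from 2 to 5 µM CBP30. The values were -0.67 and -1.04 without replicate 1 of 2 µM CBP30, and both genes were also called lower with the length trend removed. GYPB and GYPC also fell in that step, whereas ANK1 and KEL were higher at 5 µM and SPTB differed by 0.01. With the length trend removed SPTB fell as well (-0.30, limma adjusted p = 0.00914). KEL was still higher there, and ANK1 (0.12, adjusted p = 0.116) and RHAG (0.08, adjusted p = 0.118) were not called. Whether these genes follow the regulators was not tested.

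The genes closest to each of the 6 in pattern were found among 8996 tested genes averaging 5 FPKM or more, by the root mean square difference of log2 values centred over the 10 samples, which share 5 conditions. GYPC was followed most closely by WDR74 (difference 0.0545, Pearson r = 0.996), SERPINF1 and PSMG4. RHAG was followed by ZFP36L2 (0.0633, r = 0.979), GATA2 and TGM2, KEL by RCOR1 (0.0478, r = 0.981), C10orf128 and ST6GAL1, and SPTB by ATP7B (0.0413, r = 0.997), ABCC4 and STARD8. ANK1 was followed by FADS1 (0.0456, r = 0.992), FLJ43681 and PTK2B. The closest to GYPB were PHGDH (0.0903, r = 0.969), RPL13A and DERL3, at larger differences than for the others. Among the genes themselves, over the same 10 samples, KEL went with SPTB (r = 0.966) and with ANK1 (r = 0.945), and RHAG with SPTB (r = 0.918). GYPB stood apart, with r = -0.0120 with KEL and -0.188 with ANK1, and r = 0.760 with GYPC. The search and these correlations used all 10 samples with the length trend left in. GYPB and GYPC have short transcripts and SPTB and ANK1 have long ones, and the part of the trend in these patterns was not tested.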

How the data were processed

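Polyadenylated RNA of K562 cells was sequenced as stranded libraries of single 50-base reads, with 2 biological replicates per condition. Reads went through the Nextpresso pipeline on hg19 in the hands of the authors, and the submitters' processing notes name FastQC, TopHat2 2.0.10, Bowtie 1.0.0, SAMtools 0.1.19, Cufflinks 2.2.1 and Cuffnorm. The authors deposited FPKM values, 1 column per sample, without pooling. The gene annotation is not given in the sources used here. FPKM hold no read counts, so no counting error was derived.

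Values were analysed as log2(FPKM + 1), a scale that understates the change of low genes, with limma 3.58.1 in R 4.3.3 (eBayes with a trend) in 1 fit of all 5 groups, with 5 residual and 2.15 prior degrees of freedom. Genes averaging 0.5 FPKM or more were tested, and a Benjamini-Hochberg adjusted p under 0.05 over all of them was called. The method was tested on simulated data. Figures were drawn with Python 3.11.15, pandas 2.3.3 and matplotlib 3.10.9. Transcript lengths from GENCODE (GRCh37) matched 92.3% of genes by symbol or synonym. The trend with length was removed per sample with a loess of span 0.3.

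The 8 genes and all lists were chosen with earlier results of these data known, so no list is independent evidence. Beside the 8 genes, GYPE, GATA1 and KLF1, the text names from each list, other than markers, the 2 largest falls and the 2 largest rises called with 5 µM CBP30, and for each gene the 3 most similar in pattern. Some genes of the lists are not reported here. Alternatives were a pseudocount of 0.1, no filter, median centring, quantile normalization, a fit limited to the groups compared, a block for the replicate number, removal of the length trend, and leaving out each sample.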

Additional observations from a re-analysis of the deposited data

Results flagged for a closer look

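The step from 2 to 5 µM differed between CBP30 and I-CBP112 for 3 of the 6 genes, by a limma contrast of the differences adjusted over all 12788 genes tested. For GYPB the step was lower with CBP30 than with I-CBP112 by 1.23 on the log2 scale (difference -1.23, SE 0.164, adjusted p = 0.0164), since GYPB fell from 155 to 75.6 FPKM between the CBP30 concentrations and read 121 and then 140 FPKM with I-CBP112. For GYPC the difference was -0.87 (SE 0.165, adjusted p = 0.0364), with 176 and 88.6 FPKM for CBP30 and 190 and 178 FPKM for I-CBP112. For ANK1 it was of the other sign, 0.61 (SE 0.0969, adjusted p = 0.0249), with 7.14 and 9.63 FPKM for CBP30 and 12.2 and 10.3 FPKM for I-CBP112. Without replicate 1 of 2 µM CBP30, the sample with the length trend, the 3 differences were -1.09, -0.68 and 0.52, all called, and KEL was called as well (0.23). With the length trend removed they were -0.88, -0.60 and 0.31, all called, with KEL (0.46). With no filter on low values GYPC missed the threshold (adjusted p = 0.0547). The calls also depended on single samples. No call held without any 1 sample of 5 µM CBP30 or of I-CBP112, and those of GYPC and ANK1 were lost without either DMSO sample. More of the 6 genes were called without replicate 2 of 2 µM CBP30. How the calls among all genes shifted in these fits is not given here.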

How the results depend on the processing

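Of 54 fold changes followed, 31 were called with all samples. Over 7 alternative settings the 6 genes stayed called with 5 µM CBP30 against DMSO. When the fit held just the groups compared, 3 genes were called with 2 µM CBP30, 5 and 0 with 5 and 2 µM I-CBP112, 0 between the CBP30 concentrations and 0 between the compounds at 2 µM. With 2 µM I-CBP112, 2 genes were called after median centring, 2 after quantile normalization and 4 with the length trend removed. Among all genes tested, that fit called 307 with 2 µM CBP30, 1661 and 28 with 5 and 2 µM I-CBP112, and removing the length trend 1607 and 475 with 5 and 2 µM I-CBP112. RHAG between the CBP30 concentrations turned to 0.03 after quantile normalization and 0.08 with the length trend removed, and SPTB to -0.02 after median centring, -0.05 after quantile normalization and -0.30 with the length trend removed. In the test of the step between the compounds, RHAG turned to 0.05 and SPTB to -0.19 with the length trend removed.

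Same-numbered samples did not deviate together (r from -0.0681 to 0.0939), which cannot tell whether they were handled together. With the replicate block, 1 gene (GYPB) was called in the test of the step between the compounds, where GYPC (adjusted p = 0.0526) and ANK1 (adjusted p = 0.0511) were not, RHAG was not called between the compounds at 2 µM (-0.25, adjusted p = 0.0508), no other call of the fold changes followed was changed, and 111 of all genes were called with 2 µM I-CBP112. Leaving out 1 sample at a time changed how many of the 6 genes were called with I-CBP112 at both concentrations. It also changed the calls between the CBP30 concentrations and in the test of the step. Among all genes the counts ranged from 1914 to 7260 with 2 µM CBP30, 200 to 2937 with I-CBP112 at 5 µM and 34 to 1160 at 2 µM. Values that changed sign in this way ranged from -0.07 to 0.10 for GYPB with 2 µM I-CBP112, from -0.06 to 0.09 for SPTB between the CBP30 concentrations, and from -0.32 to 0.07 for GYPC between the compounds at 2 µM. The cause of these shifts was not tested. A group left with 1 sample was assumed to vary like the others.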
